A study of Mus musculus and Rattus norvegicus with 53 samples.

Results

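The nuclear genes that encode subunits of the oxidative phosphorylation machinery were followed in mouse Schwann cells (SCs) of intact and cut sciatic nerves. Members were taken by symbol from the count files (Nduf, Sdh, Uqcr, Cox4 to Cox8 and Atp5 names). Of 24016 genes listed, 83 matched. They were assigned to a complex by name alone, 36 to complex I, 4 to complex II, 8 to complex III, 18 to complex IV and 17 to complex V. The names also take in Cox7a2l, a supercomplex assembly factor, and Atp5s (factor B) and Atp5sl, which are not subunits. The mitochondrially encoded subunits have no row in the count files.

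SCs were sorted by tdTomato from mice in which a Cre transgene active in the SC lineage switches on the reporter, so that every group, intact ones included, carried the same Cre and tdTomato alleles. The mice were young adults of 6 to 8 weeks and of both sexes. SCs came from intact nerves (iSCs), which the authors describe as the contralateral nerves of transected mice. After complete transection, SCs also came from the distal stump (dSCs) and from the new bridge tissue (bSCs). In the pooled nerves, each library held cells of 3 mice, with 4 libraries each of iSCs, day 6 dSCs and day 6 bSCs. In the single nerves, 5 libraries came from iSCs. The dSCs were sampled on day 1 and on day 2 and then, together with the bSCs, on day 4, day 6, day 8 and day 10, with 3 libraries per region and day. Where nothing else is said, the p-values measure the spread between these libraries.

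Oxidative phosphorylation passes electrons from NADH (complex I) or succinate (complex II) through complex III and cytochrome c to oxygen at complex IV, and the proton gradient built on the way drives the ATP synthase, complex V. Most subunits are encoded in the nucleus and imported, whereas a few core ones come from mitochondrial DNA. In peripheral nerve, SC mitochondria are needed to keep myelin and axons intact, and after injury SCs shed myelin, dedifferentiate and divide.

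Depth ran from 11435463 to 22617054 gene counts in the pooled nerves and from 9240883 to 22426128 in the single nerves. The members together took 0.715% to 1.63% of these counts in the pooled nerves and 0.477% to 2.33% in the single nerves. Ndufs5, Cox7b2 and Cox8c had 0 counts in all 47 libraries. A filter on low counts left 78 members in the pooled nerves and 72 in the single nerves. Of the single-nerve libraries, 5 had fewer than 12000 genes detected, a cut set after seeing the data. They were iSC 0 and iSC 1, dSC day 1 replicate 1, dSC day 2 replicate 0 and bSC day 10 replicate 0 (11983 genes, against 12136 in dSC day 6 replicate 1). They are kept in the values below and left out where stated. In the pooled nerves the SC label was checked against 10 SC markers, none of which was at 0 in every library of a pooled-nerve group. Their summed level was between 27099 and 68188 CPM (gene counts relative to the library's scaled total) in pooled iSCs, between 1999 and 6890 in dSCs and between 2111 and 5627 in bSCs. The summed level of 15 macrophage markers was 268 to 6772 CPM in iSCs, 11164 to 18631 in dSCs and 2800 to 9087 in bSCs, and 3 of them rose in dSCs against iSCs. A list of 7 fibroblast markers summed to 10957 to 55992 CPM in iSCs, 34011 to 49445 in dSCs and 19430 to 35236 in bSCs, where Dcn and Lum were called lower than in either other group. In the same libraries the sum over 10 endothelial markers reached at most 1259 CPM and that over 5 mural markers at most 1624. The part of these lists in the results below was not tested. In bulk samples, fewer cells of a type and less RNA per cell cannot be told apart.

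In the pooled nerves, subunit genes were higher in bSCs than in iSCs, with complex V in front. With edgeR's quasi-likelihood test and an adjusted p under 0.05, 24 of the 78 tested members (30.8%) rose and 0 fell, whereas over all 13751 genes tested 7.24% rose and 7.46% fell. The median log2 fold change of the members was 0.62, and that of all genes was -0.16. Of the 78, 68 had a log2 fold change above 0. In 25 members all 4 bSC libraries lay above all 4 iSC libraries and in 0 members below, against 10.5% of all tested genes that lay above. By complex, 11 of 17 tested members rose in complex V, 4 of 8 in complex III, 5 of 35 in complex I, 3 of 14 in complex IV and 1 of 4 in complex II. Pools with the same number come from the same animals by the labels, and with this number as a block 4 of the 24 calls were left (Atp5g1, Atp5g2, Atp5o and Cox7a2l). Leaving out iSC pool 1 gave 14 calls and leaving out iSC pool 4 gave 15.

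**Figure D1:**
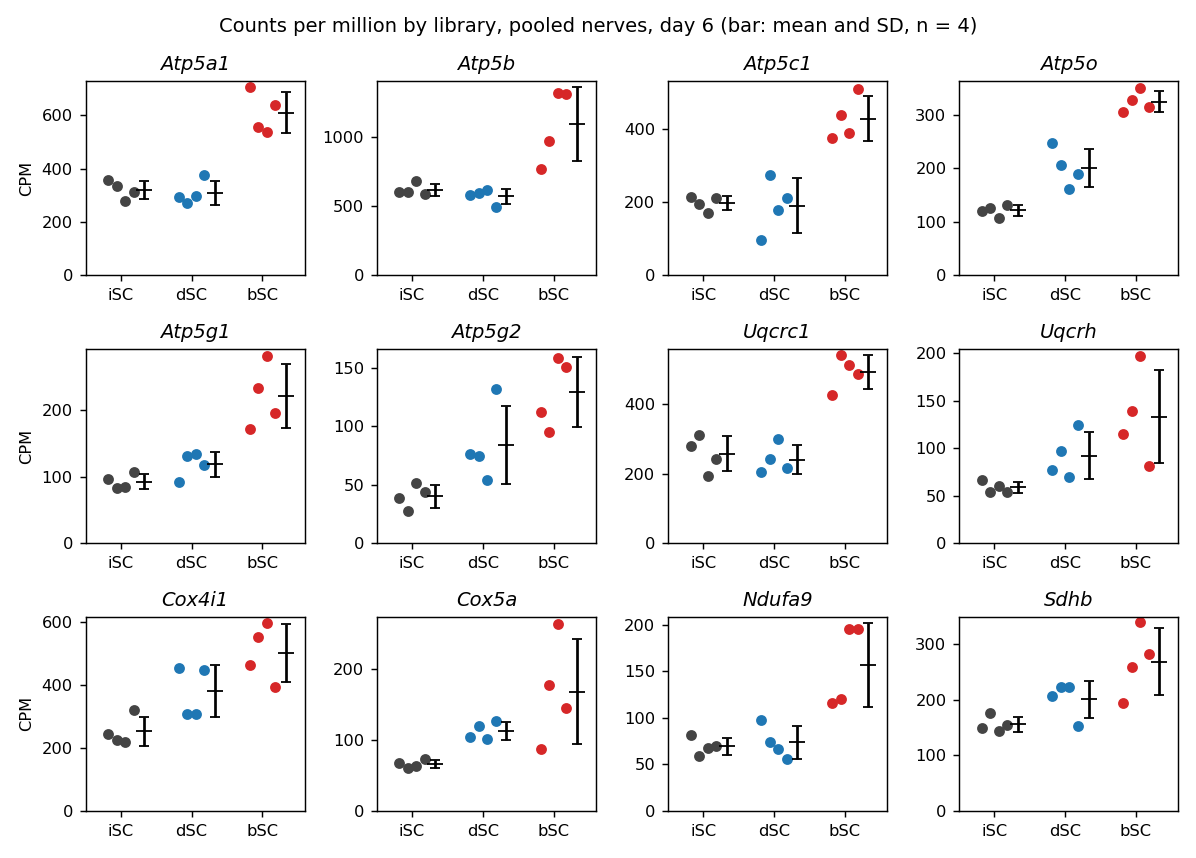
CPM (vertical axis, from 0) of 12 members in each pooled-nerve library, with iSCs in grey, dSCs in blue and bSCs in red (n = 4 each), and the mean and SD in black. In Atp5a1, for example, the bSC libraries lie between 539 and 707 CPM and those of the other groups between 272 and 377.

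Complex V makes ATP in its F1 head, which is held by a peripheral stalk. A ring of c subunits in the membrane turns the rotor inside the head. In F1, 4 of 5 genes rose in bSCs against iSCs. Atp5b, the catalytic beta subunit, was at 603, 606, 685 and 589 CPM in iSCs, at 580, 595, 616 and 491 in dSCs and at 770, 970, 1320 and 1309 in bSCs. The bSC libraries of Atp5b therefore all lay above the other 8, with a log2 fold change against iSCs of 0.82 ± 0.22 (SE, n = 4 and 4, edgeR adjusted p = 0.0237). Atp5a1, the alpha subunit, was at 357, 336, 280 and 311 CPM in iSCs, at 293, 272, 298 and 377 in dSCs and at 707, 558, 539 and 640 in bSCs. Its change against iSCs was 0.93 ± 0.20 on the log2 scale (SE, edgeR adjusted p = 0.00689). Atp5c1, the gamma subunit of the rotor, gave 1.12 ± 0.28 and Atp5d, the delta subunit, 0.81 ± 0.22 on the same scale. Atp5e, the short epsilon subunit, spread from 34.3 to 129 CPM in bSCs and from 18.2 to 59.4 in iSCs, and its 1.14 ± 0.47 did not pass.

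The peripheral stalk and the c ring moved as whole groups, with 4 of 4 and 3 of 3 members called. Atp5o, which encodes the stalk subunit OSCP, was at 120, 126, 107 and 131 CPM in iSCs, at 246, 206, 161 and 189 in dSCs and at 305, 326, 350 and 315 in bSCs. The 3 groups of Atp5o did not overlap, and bSCs exceeded iSCs by 1.42 ± 0.20 on the log2 scale (SE, edgeR adjusted p = 0.000573). The stalk genes Atp5f1, Atp5j and Atp5h gave log2 fold changes of 1.01, 0.96 and 0.82. The c subunit is one protein made from 3 genes that differ in their import sequence. Atp5g2 was at 38.4, 27.2, 51.2 and 43.6 CPM in iSCs, at 76.4, 74.8, 53.7 and 132 in dSCs and at 113, 95.5, 159 and 151 in bSCs. It had the largest log2 fold change of the tested members in bSCs against iSCs, 1.69 ± 0.32 (SE, edgeR adjusted p = 0.00361). Atp5g1 rose by 1.26 ± 0.23 and Atp5g3 by 0.99 ± 0.31 on the log2 scale. Mean CPM in iSCs was 40.1 for Atp5g2, 92.3 for Atp5g1 and 40.5 for Atp5g3, and in bSCs 130, 221 and 80.3. Per kilobase of exon, with all annotated exons of a gene merged, the iSC level was 62.0, 18.8 and 18.6 CPM in the same order. The bSC level per kilobase was 200.2, 45.0 and 36.8. The merged lengths were 647, 4908 and 2181 bases and the coding lengths 441, 411 and 426. Which of these genes stood highest thus depends on the length used. The membrane accessory genes Atp5l, Atp5j2 and Atp5k had values of 0.89, 0.78 and 0.14, none of which passed.

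Atp5g2 lies at chr15:102493299-102501478 on the minus strand of NCBIM37, the Ensembl name of the mm9 build used for the counts. Promoters from RefSeq (GRCm38.p6, 250 bases before to 50 after the gene start) were matched to 69 of the 83 members. They were searched on both strands for GCATGCGC (NRF1), CCGGAAG (GABPA, an ETS factor) and AAGATGGC (YY1), short core motifs of factors known to act on such genes. NRF1's motif was in 14.5% of the matched members and in 3.05% of all 27025 genes with a promoter, GABPA's in 23.2% and 9.93%, and YY1's in 15.9% and 3.19%. Any of the 3 was found in 9 of 19 matched members that rose in bSCs (47.4%) and in 22 of the 47 matched members that were tested and did not (46.8%). The motifs were thus about as common in either set, and a match is a description of the letters only. The promoter of Atp5g2 is shown because the gene changed most, and that of Sdhb because it holds an NRF1 and a GABPA motif, which stand in capitals (the NRF1 matches on both strands of Atp5g2 overlap).
Atp5g2, chr15:102670998-102671297, minus strand: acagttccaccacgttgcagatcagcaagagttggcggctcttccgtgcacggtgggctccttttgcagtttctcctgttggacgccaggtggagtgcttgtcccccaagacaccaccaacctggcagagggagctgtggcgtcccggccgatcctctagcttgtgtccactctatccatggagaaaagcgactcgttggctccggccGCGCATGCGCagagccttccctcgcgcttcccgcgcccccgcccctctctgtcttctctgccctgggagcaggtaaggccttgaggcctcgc
Sdhb, chr4:140961021-140961320, plus strand: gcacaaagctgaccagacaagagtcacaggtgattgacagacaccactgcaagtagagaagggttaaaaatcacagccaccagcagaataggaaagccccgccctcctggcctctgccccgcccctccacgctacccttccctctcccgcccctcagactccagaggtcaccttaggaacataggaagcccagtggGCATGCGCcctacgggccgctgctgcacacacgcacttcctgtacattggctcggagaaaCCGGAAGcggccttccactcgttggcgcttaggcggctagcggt

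Complex III passes electrons from ubiquinol to cytochrome c. Of the 8 members assigned to it by name, Uqcrc1, Uqcrb, Uqcrh and Uqcrq rose in bSCs against iSCs, and all 8 had a log2 fold change above 0. Uqcrc1, which encodes a core protein, was at 280, 311, 194 and 243 CPM in iSCs, at 204, 241, 300 and 216 in dSCs and at 427, 541, 513 and 487 in bSCs. The dSC libraries of Uqcrc1 lay within the range of the iSC libraries and the bSC libraries stood above both, with a log2 fold change of 0.94 ± 0.22 against iSCs (SE, edgeR adjusted p = 0.0108). The small Uqcrq, Uqcrh and Uqcrb gave 1.32, 1.18 and 1.06 on the log2 scale. Uqcrfs1, which encodes the Rieske iron-sulfur protein, was not called, at 0.37 ± 0.27.

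Complex IV reduces oxygen, and several of its nuclear subunits exist as ubiquitous and tissue-restricted isoforms. The ubiquitous isoforms were far above the restricted ones. In iSCs, Cox4i1 was at 372 CPM per kilobase of exon and Cox4i2 at 1.88, Cox6a1 at 241 and Cox6a2 at 0.031, Cox6b1 at 222 and Cox6b2 at 5.03, Cox7a2 at 95.6 and Cox7a1 at 6.27, and Cox8a at 223 and Cox8b at 0.054. The same isoform of each pair was the higher one in dSCs and bSCs, where the highest restricted isoform was Cox6b2 in dSCs at 8.62. Cox4i1 was at 246, 224, 220 and 320 CPM in iSCs, at 454, 309, 309 and 449 in dSCs and at 464, 554, 598 and 392 in bSCs. It rose by 0.99 ± 0.23 on the log2 scale in bSCs against iSCs (SE, edgeR adjusted p = 0.0123), and its dSC values lay between and overlapped both. Cox5a, which has no second isoform, went from 67.5, 60.1, 63.8 and 73.2 CPM in iSCs to 86.9, 178, 264 and 146 in bSCs. Its change was 1.35 ± 0.29 on the log2 scale, with the lowest bSC library above the highest iSC library. Cox7a2l, the supercomplex factor, gave 1.34 ± 0.24. None of Cox4i2, Cox6b2 and Cox7a1, the restricted isoforms that passed the filter, was called, and their levels were at most 8.27 CPM in the 12 libraries.

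Complex I has core subunits that carry the redox centres and many accessory ones. The 5 called members, Ndufb5, Ndufa9, Ndufc2, Ndufa8 and Ndufb9, are all accessory, with log2 fold changes of 1.30, 1.17, 1.02, 0.84 and 0.76 in bSCs against iSCs. Ndufa9 was at 81.7, 59.3, 67.3 and 69.9 CPM in iSCs, at 97.8, 74.2, 66.2 and 56.2 in dSCs and at 116, 120, 196 and 195 in bSCs, with the bSC libraries above the other 8. None of the 7 core genes passed. Those of the N module, which takes electrons from NADH, had log2 fold changes of 0.38 (Ndufs1), 0.15 (Ndufv2) and 0.01 (Ndufv1), and in the Q module Ndufs7 had -0.27. In complex II, which is shared with the citric acid cycle, Sdhb, the iron-sulfur subunit, was at 149, 175, 144 and 155 CPM in iSCs and at 194, 259, 340 and 282 in bSCs. It rose by 0.79 ± 0.22 on the log2 scale (SE, edgeR adjusted p = 0.0298), while Sdhd, Sdhc and Sdha had values of 0.62, 0.45 and 0.27 and did not pass.

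**Figure D2:**
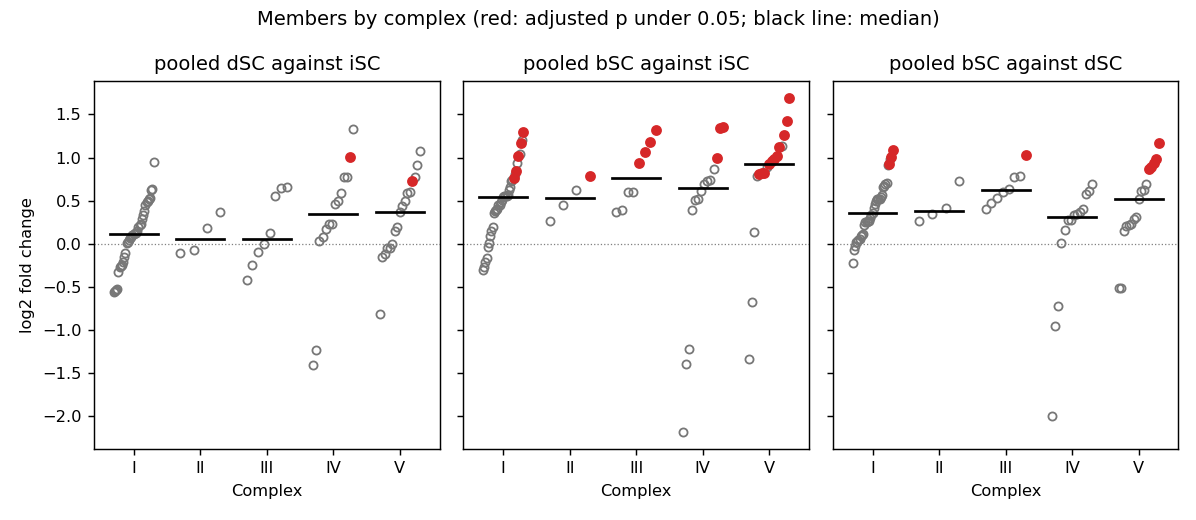
Log2 fold change (vertical axis) of each of the 78 tested members by complex in the 3 pooled-nerve comparisons, with members past an adjusted p of 0.05 in red, others open, and the median of each complex as a line. For bSCs against iSCs the median of complex V is 0.93, and for dSCs against iSCs it is 0.36.

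In dSCs against iSCs, which share the iSC libraries with the comparison above, the members moved little. Cox7a2l and Atp5o rose, 2 of 78 (2.56%), and 0 fell, close to the 2.63% of all genes that rose and the 2.69% that fell. The median log2 fold change was 0.16, with 53 of 78 above 0. Cox7a2l was at 87.2, 70.6, 63.5 and 71.9 CPM in iSCs and at 130, 182, 103 and 173 in dSCs. This was a change of 1.00 ± 0.24 on the log2 scale (SE, edgeR adjusted p = 0.0264), with no overlap of the libraries. For Atp5o it was 0.73 ± 0.19 (adjusted p = 0.0454 by the same edgeR test). Cox6c and Atp5g2 had larger values with more spread, 1.33 ± 0.47 and 1.07 ± 0.32, and did not pass. The 3 N module genes of complex I all had negative values, from -0.54 to -0.56, without passing the test. With the pool number as a block 0 members were called, and leaving out single libraries gave 0 calls for iSC pools 1, 2 or 4 and for dSC pools 2 or 5, 1 for dSC pool 1 and 3 for dSC pool 3.

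Between the injured regions, bSCs against dSCs, 9 of 78 members (11.5%) rose and 0 fell, against 2.31% and 3.11% of all genes. The median log2 fold change was 0.40, and that of all genes was -0.07. Among the 9 were Atp5a1, Atp5b, Atp5c1, Atp5f1 and Atp5g1 of complex V, Ndufa9 and Ndufb9 of complex I, and Uqcrc1 of complex III. Atp5c1 rose by 1.17 ± 0.28, Uqcrc1 by 1.03 ± 0.22, Ndufb9 by 1.01 ± 0.22, Atp5a1 by 0.98 ± 0.20 and Atp5b by 0.94 ± 0.22. In complex IV, edgeR called 0 of 14 tested members, with 1 at an unadjusted p under 0.05. With the pool number as a block Uqcrc1 alone remained. Each of 7 libraries decided part of the count, which was 2 without dSC pool 1 or 5, 3 without dSC pool 2, bSC pool 3 or bSC pool 5, 4 without bSC pool 2 and 5 without dSC pool 3.

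Other genes of the pathway were taken as lists in the pooled nerves. Of 14 citric acid cycle genes, Cs, Fh1 and Mdh2 rose in bSCs against iSCs and Idh3a, Fh1 and Mdh2 were among those that rose against dSCs, while Idh3g fell in dSCs against iSCs. Fh1, the fumarase that acts after complex II, was at 57.4, 68.4, 46.4 and 76.9 CPM in iSCs, 35.7, 74.9, 74.1 and 65.3 in dSCs and 129, 135, 141 and 131 in bSCs. Cycs, cytochrome c, rose by 1.13 against iSCs and by 1.28 against dSCs on the log2 scale. Of 77 genes of the mitochondrial ribosome, which translates the mitochondrially encoded subunits, 7 rose and Mrps6 fell in bSCs against iSCs, a share of risen genes near the 7.24% of all genes, with a median of 0.47. Of 42 tested assembly factors, Coa5 alone was called, in bSCs against iSCs. Of 16 tested regulators of mitochondrial biogenesis, Ppargc1a, the coactivator PGC-1alpha, was the only call. It fell in bSCs against both other groups and was at 18.7, 17.4, 21.2 and 6.53 CPM in iSCs, at 8.34, 38.3, 9.68 and 1.04 in dSCs and at 0, 0.0731, 0.0859 and 1.03 in bSCs. In the cytosolic ribosome, 63 of 78 tested genes rose in bSCs against iSCs (median log2 fold change 1.70) and 25 of 78 in dSCs against iSCs (median 1.17). The bSC libraries also had the fewest genes detected, 11735 to 12606 against 13600 to 14987 in iSCs and 12432 to 14715 in dSCs, and whether this contributed to the bSC values was not tested.

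In the single nerves the spread between libraries of one group was far wider than in the pooled nerves. The mean log2 CPM of the tested members was 6.65 ± 1.40 (SD, n = 5) in iSCs, from 4.72 in iSC 3 to 8.63 in iSC 1, whereas in the pooled nerves it was 6.04 ± 0.18 in iSCs, 6.20 ± 0.25 in dSCs and 6.53 ± 0.40 in bSCs (n = 4 each). The means of the dSC groups were 7.23 ± 0.91 at day 1, 7.37 ± 1.53 at day 2, 5.95 ± 1.25 at day 4, 6.53 ± 0.41 at day 6, 5.85 ± 0.94 at day 8 and 5.82 ± 1.12 at day 10 (SD, n = 3 each). Those of the bSC groups were 6.40 ± 1.03 at day 4, 5.71 ± 0.58 at day 6, 6.49 ± 0.53 at day 8 and 6.97 ± 0.30 at day 10.

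The genes with short coding sequences carried most of this spread. Atp5a1, with a coding length of 1662 bases, had an SD of log2 CPM of 0.35 over the 35 single-nerve libraries, and its highest library was 2.92 times its lowest. Atp5e, with 159 bases, had an SD of 1.69 and ranged from 4.93 CPM in iSC 3 to 876 in dSC day 2 replicate 0. Over the 72 tested members Spearman's rho between coding length and SD was -0.829, a description across genes that share the same libraries. Over all 6759 tested genes with a coding length it was 0.207. In the pooled nerves it was -0.469 over 78 members and 0.143 over all genes. The median SD was 1.42 for the 43 members under 500 bases and 0.838 for the 29 longer ones in the single nerves, and 0.623 and 0.482 in the pooled nerves. In bSCs against iSCs of the pooled nerves, 11 of 46 members under 500 bases rose (median 0.66) and 13 of 32 longer ones (median 0.56). In bSCs against dSCs, 1 of 46 short members rose (median 0.34) and 8 of 32 longer ones (median 0.59). In dSCs against iSCs it was 1 in each class, with medians of 0.37 and -0.06.

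**Figure D3:**
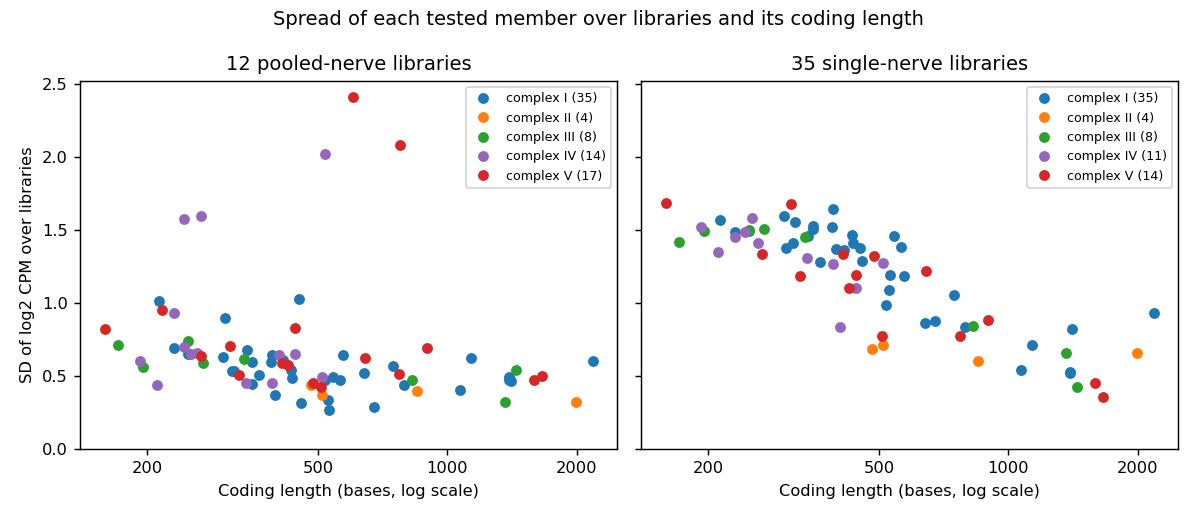
SD of log2 CPM over the 12 pooled-nerve libraries (left) or the 35 single-nerve libraries (right) against coding length in bases (log scale), with 1 point per tested member coloured by complex. On the right, Atp5e sits at the upper left with an SD of 1.69 and Atp5a1 at the lower right with 0.35.

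Against single-nerve iSCs, 0 members were called at day 1 or day 2 in dSCs. At day 1 edgeR gave 0 members at an unadjusted p under 0.05 and DESeq2 0 calls, and of all 7171 genes 0.153% rose and 0% fell. At day 2 there was 1 member at an unadjusted p under 0.05 and again 0 calls by DESeq2, with 0.655% of all genes higher and 0.349% lower. The median log2 fold changes of 0.15 and 0.73 turned to -0.66 without dSC day 1 replicate 1 and to -0.90 without dSC day 2 replicate 0, and became 1.25 and 1.92 without iSC 1, with 1 call at day 2.

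Averaged over days 4 to 10, dSCs had lower member levels than iSCs with every library kept, but hardly so without iSC 1. Of 72 members, 6 fell (8.33%) and 0 rose. The share that fell was near the 6.41% of all genes that fell, and 3.19% of all genes rose. The median log2 fold change of the members was -1.05. In the same comparison 9 of 13 tested macrophage markers rose and 3 of 10 endothelial markers fell. The summed macrophage level was 364 to 1585 CPM in single-nerve iSCs and 2966 to 15780 in these dSCs, and the summed endothelial level was 1873 to 6179 and 515 to 2975. Of the SC markers 3 of 8 tested fell and 1 rose, with sums of 7367 to 36644 CPM in iSCs and 1706 to 4456 in dSCs. The part of these lists in the lower member levels was not tested. The 6 members were Atp5b, Atp5c1, Ndufb9, Ndufv2, Uqcrfs1 and Cox7a2l. Atp5c1 was at 1786, 1735, 193, 216 and 272 CPM in iSC 0, 1, 3, 4 and 5 and between 168 and 311 in the 12 dSC libraries of these days. Its log2 fold change of -1.79 ± 0.42 (SE, edgeR adjusted p = 0.00731) rested on iSC 0 and iSC 1, since the other 3 iSC libraries lay inside the dSC range. Ndufb9 was also highest in iSC 0 and iSC 1, with 303, 1074, 19.5, 117 and 167 CPM in iSC 0, 1, 3, 4 and 5. In those dSCs it was at 19.6 to 160 CPM, with iSC 4 inside this range, iSC 3 just below it and iSC 5 just above it. Without iSC 1 the median of the members was -0.04, with 1 call, and without iSC 0 there were 0 calls. Without the 5 libraries under 12000 genes the median was 0.18, with 0 calls. Leaving out iSC 3, 4 or 5 raised the count to 15, 11 and 11, and it was 2 without dSC day 4 replicate 0, day 6 replicate 0, day 8 replicate 2 or day 10 replicate 0, and 3 without day 4 replicate 2.

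The bSCs of days 4 to 10 share these iSC libraries. Atp5c1 was the only member called lower, 1 of 72 (1.39%), and 0 were higher, against 6.46% of all genes lower and 3.63% higher, with a median of -0.83. Here too 9 of 13 macrophage markers rose, to sums of 1326 to 16318 CPM, and 1 of 10 endothelial markers fell, with sums of 465 to 4636, and their part was not tested. Without iSC 1 the median was 0.10, and without the 5 libraries under 12000 genes 0.44, with 0 calls in either case. The count was also 0 without iSC 0 or bSC day 6 replicate 1, 7 without iSC 3, 3 without iSC 4 or 5, and 2 without bSC day 4 replicate 2, day 6 replicate 3 or day 10 replicate 0. With every library kept, the sign of the bSC median against iSCs thus differed between the pooled and the single nerves, and it did not once iSC 1 was left out.

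**Figure D4:**
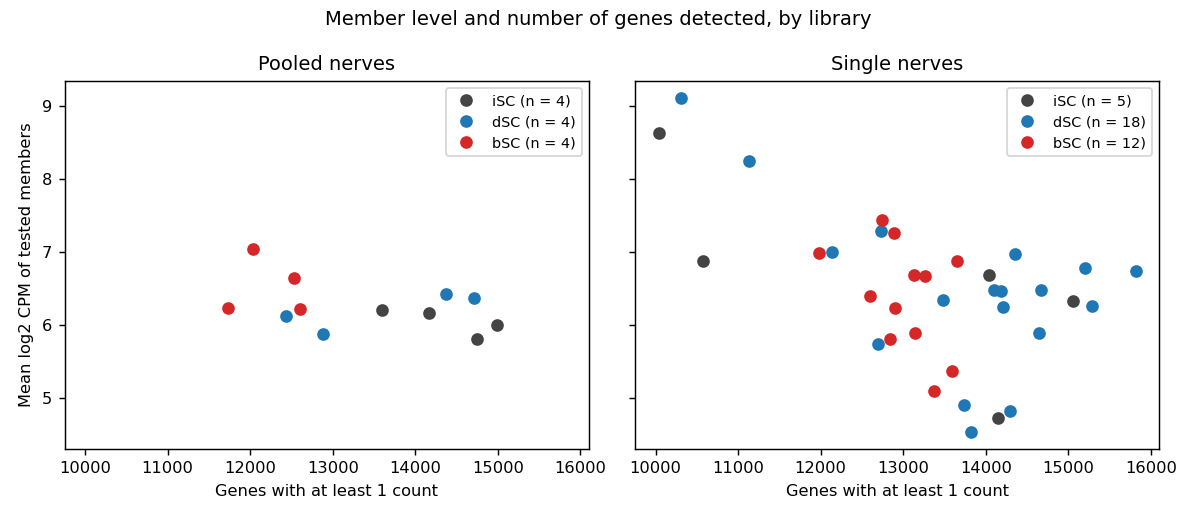
Mean log2 CPM of the tested members (vertical axis) against the number of genes with at least 1 count, with 1 point per library, for the pooled (left) and single nerves (right), by region. Among the single nerves, iSC 1 (10042 genes) and dSC day 2 replicate 0 (10306 genes) have the highest means, 8.63 and 9.12.

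Across single-nerve libraries, those with few genes detected tended to have high member levels, with Pearson's r of -0.556 and Spearman's rho of -0.433 over 35 libraries of 11 groups, and -0.414 and -0.441 over the 12 pooled-nerve libraries. These are descriptions over libraries that also differ in group. In iSC 1 the members took 1.90% of the counts and in dSC day 2 replicate 0 they took 2.33%. Whether the number of genes detected contributed to the differences from iSCs was not tested beyond leaving out these libraries.

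**Figure D5:**
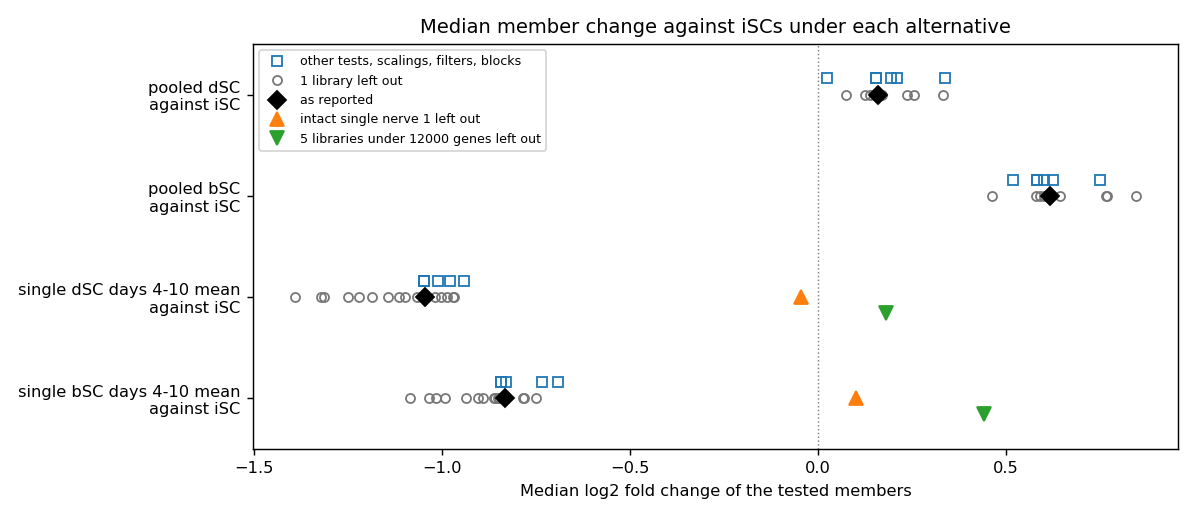
Median log2 fold change of the tested members against iSCs (horizontal axis) for 4 comparisons, as reported (black), under other tests, scalings, filters or blocks (blue), with 1 library left out (grey, or orange for iSC 1) and without the 5 single-nerve libraries under 12000 genes (green). The pooled bSC medians stay between 0.46 and 0.85, whereas the single-nerve medians of -1.05 and -0.83 move to 0.18 and 0.44 when those 5 libraries are left out.

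Between bSCs and dSCs of the single nerves over days 4 to 10, 0 of 72 members were called by edgeR or DESeq2 and 0 were at an unadjusted p under 0.05, against 0% of all genes higher and 0.112% lower. The log2 fold change was above 0 for 66 of 72 members, with a median of 0.23 and 0.05 for all genes. The largest was that of Atp5g1, 0.67 ± 0.45 (SE), and the smallest p belonged to Atp5a1, at 0.28 ± 0.17. Within animals, the median difference of the members on the log2 scale was 0.54, 0.15 and 0.59 at day 4, 0.05, -2.20 and -0.44 at day 6, -0.81, 0.88 and 2.54 at day 8 and 0.20 at day 10. It was above 0 in 7 of 10 animals, and the widest values of both signs fell on days 6 and 8. With the animal as a block the median was 0.08, again with 0 calls.

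Over time, 0 members passed edgeR's F test among the 6 days of dSCs, with 15 at an unadjusted p under 0.05, against 0.237% of all genes that passed. DESeq2 called 8, Atp5g1, Cox7a2, Ndufb4, Ndufb6, Ndufb8, Ndufb9, Ndufs4 and Ndufv2. Leaving out the 5 libraries under 12000 genes was run with edgeR only, which again gave 0, so it does not bear on the DESeq2 calls. Atp5g1 was at 191, 497 and 153 CPM at day 1, at 1271, 108 and 177 at day 2, and between 18.8 and 152 from day 4 to day 10. The highest values at day 1 and day 2, 497 and 1271 CPM, came from libraries under 12000 genes. The 191, 153 and 177 CPM of other libraries also lay above the range of days 4 to 10, and 108 lay within it. Among the 4 days of bSCs 0 members passed by edgeR or DESeq2, 0 were at an unadjusted p under 0.05, and 0.0139% of all genes passed. Atp5g1 in bSCs was at 48.9, 172 and 157 CPM at day 4, at 124, 41.3 and 69.0 at day 6 and at 83.8, 141 and 132 at day 8. At day 10 it was at 231, 256 and 205, the first of these in a library under 12000 genes. For the region by day interaction the same counts were 0, 0 and 0%.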

How the data were processed

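Members and gene lists were chosen with earlier results of these data known. The authors aligned Smart-seq2 reads with TopHat2 2.0.11 to mm9 and counted them per gene symbol with HTSeq, and the raw counts were used as deposited, with lanes of a library summed and HTSeq's categories and ERCC spike-ins set aside. Smart-seq2 amplifies by PCR without molecular identifiers, so reads are not independent molecules. Groups were taken from the sample labels. The rat libraries were not used. A few genes are not reported here.

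Differential expression was tested with edgeR 4.0.16 in R 4.3.3 (TMM, quasi-likelihood test, Benjamini-Hochberg adjustment over all tested genes, adjusted p under 0.05) in 1 fit per experiment with the group as the only term, after filterByExpr in the pooled nerves or a minimum of 100 counts, met by 85% or more of the single-nerve libraries. The tests were checked on simulated counts in which genes varied independently and changed more than most members did. Shifts shared by many members of a library were not simulated, so the check does not cover them. CPM were scaled by TMM factors, and log2 CPM used a prior count of 2. Coding length is the longest coding sequence in GENCODE M1. Alternatives were DESeq2 1.42.0, its size factors, other filters, only the groups compared, a replicate block, leaving out each library, and, added after seeing the data, a covariate for lanes and leaving out libraries under 12000 genes.

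By the labels, pools of the same number share animals in the pooled nerves. The mean correlation of their deviations from the group means was -0.0143 (10 pairs) against 0.0045 for different numbers. In the single nerves, 10 animals gave a bSC and a dSC library, with a mean of 0.155. Another bSC library of day 10 carries conflicting numbers in its labels and was left out of the pairs and the animal block. Named genes were the members called in any comparison between groups, the 5 largest and 5 smallest changes, the 2 most abundant per complex, the isoform sets, Sdha to Sdhd, and called regulators and assembly factors, of which not every one is given. Named outside this rule, after their values were seen, were Atp5j2, Atp5k, Atp5l, Ndufb6, Ndufs4, Ndufs7 and called genes of the other lists.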

Additional observations from a re-analysis of the deposited data

Results flagged for a closer look

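Dixon's ratio, the gap to the nearest value over the range, was computed for 146 sets of 4 or 5 libraries of one group and marked 5. Chance alone marks about 1 in 20. Atp5f1 in iSC pool 5 was at 270.1 CPM, above the 182 to 193 of the other iSC pools. Ndufs7 in bSC pool 1 was at 69.65 CPM, with the other bSC pools between 103 and 106. Ndufv2 in dSC pool 2 was at 58.0 CPM, below the 154 to 171 of the other dSC pools. In the single nerves, Atp5b in iSC 0 was at 2385 CPM, with the others between 857 and 1122. Ndufb9 in iSC 1 was at 1074 CPM, with the others between 19.5 and 303. Both of these iSC libraries had fewer than 12000 genes detected. The part this played was not tested.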

How the results depend on the processing

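Counts of members called in the pooled nerves depended on the setting, and no called member changed sign. In the fit with a replicate block for the pool it was 4 for bSCs against iSCs, 1 for bSCs against dSCs and 0 for dSCs against iSCs. The iSC pool 4 has no injured partner and the dSC and bSC pools 3 have no intact one. The cause of the lower counts was not tested. DESeq2 gave 4 for dSCs against iSCs and no filter gave 1. Fitting only the groups compared gave 5 for bSCs against dSCs. Leaving out each library gave 0 to 3, 14 to 27 and 2 to 10 calls for dSCs against iSCs, bSCs against iSCs and bSCs against dSCs. The median for dSCs against iSCs was 0.03 with the replicate block and 0.34 with the lane covariate. In bSCs against iSCs, 2 uncalled members near 0 changed sign. Ndufv1 was at -0.0260 with DESeq2, -0.0261 with its size factors, -0.0015 with only the groups compared, -0.157 with the replicate block, -0.0144 with the lane covariate and -0.335 to 0.154 over left-out libraries, and Atp5k at -0.644 to 0.654 over the latter.

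In the single nerves, dSCs of days 4 to 10 against iSCs gave 11 calls with DESeq2, 1 without a filter, 2 with filterByExpr, 3 with only the groups compared and 0 without the libraries under 12000 genes, where the median was 0.18. For bSCs the counts were 2 with DESeq2, 2 with its size factors, 0 with only the groups compared and 0 without those libraries, where the median was 0.44. In that setting the log2 fold changes of Uqcrfs1, Cox7a2l and Atp5c1 in dSCs became 0.031, 0.35 and 0.11 and that of Atp5c1 in bSCs 0.47. Leaving out each library gave 0 to 15 calls for dSCs, 0 to 7 for bSCs and 0 to 1 at day 2, where the median ranged from -0.90 to 1.92. DESeq2 called 8 members across dSC days. The animal as a replicate block gave a median of 0.08 and changed no call. The spread between single-nerve libraries limits these comparisons.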
